A study of Mus musculus with 28 samples.

Results

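The comparison described here set meiocyte-like cells made from telomere-rescued mouse embryonic stem cells against those made from short telomere stem cells. Its members were all genes with at least 1 TPM in 2 or more of the 4 libraries concerned, which gave 16897 of the 53564 gene symbols of the deposited expression table. A gene at 1 TPM or more in exactly 2 of these libraries was just inside (1987 genes, median of the mean TPM 1.15), and one that reached it in exactly 1 was just outside (2449 genes, median 0.644). The 3 stem cell lines, all of strain C57BL6, were LT (wild type, long telomeres), ST (Terc-KO G4, short telomeres) and RT (Terc-rescued, telomere length rescued). Epiblast-like cells of each line were aggregated with BMP4, SCF, EGF and LIF, and 1 day of that induction gave the embryoid bodies called 1dEB. PGC-like cells from 4 days of the induction were then mixed with somatic cells of female E12.5 Actin-GFP gonads and kept for 1 day with 3 µM retinoic acid, after which GFP-negative cells were sorted as 1dMeioLC. E10.5 PGCs, sorted from embryos by integrin β3 and SSEA1, were sequenced directly or after the same culture with gonadal cells (PGC-1dMeioLC). Each group had 2 libraries. The labels do not say whether these came from separate cultures or clones, so a p-value measures only the spread between these libraries, which may be technical, and each line may stand for 1 clone. The labels do not say how Terc was restored in RT.

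Primordial germ cells are the founders of eggs and sperm. After they reach the gonad they erase much of their DNA methylation, switch on late germ cell genes such as Dazl and Ddx4 and, in a female gonad, answer retinoic acid and BMP signals by entering meiosis, with Stra8 as the best known early gene. Telomerase, with the RNA Terc and the protein Tert, keeps chromosome ends long, and cells with very short telomeres are known to raise a DNA damage response through p53.

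TPM values add up to the same total in every library, so the read depth behind them is unknown. Terc itself lay outside the rule. It was listed at 0 in both ST libraries, stood at 3.08 and 0.699 TPM in RT and at 2.35 and 5.39 TPM in LT, and was also listed at 0 in both PGC-1dMeioLC libraries, which carry no knockout. The limma adjusted p of Terc in RT minus ST was 0.023, and it rose to 0.17 when RT replicate 1 was left out and to 0.081 and 0.078 when ST replicate 1 or 2 was. Genes of a chromosome 17 locus with rRNA-like sequence took 1.31% and 1.45% of TPM in RT and 9.22% and 9.13% in ST, against 1.92% and 1.90% in LT. Nuclear protein-coding genes took 60.6% and 60.8% in RT and 56.6% and 56.5% in ST. Germ cell markers were present in all 4 libraries, with none of the 12 listed at 0, and so were markers of gonadal somatic cells, with none of 20 listed at 0. Of 14 erythroid markers, 1 (Slc4a1) was listed at 0 in all 4. In bulk RNA fewer cells of a type and less RNA per cell cannot be told apart.

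RT and ST differed in 6802 of the 16897 measured genes (40.3%) at a limma adjusted p under 0.05, with 2538 (15%) higher in RT and 4264 (25.2%) lower. At 2-fold or more, 857 genes (5.07%) were higher and 961 (5.69%) lower, and the median difference over all measured genes was -0.11 on the log2(TPM + 1) scale, on which all log2 fold changes below are given. This scale understates the change of genes at a few TPM. Of the members, 702 reached 1 TPM in both RT libraries and in neither ST library, and 782 did the reverse. The rule fixed the direction of these genes, so their calls are no support for a list. Among the former are Sohlh1, Usp17la, Dhx58, Bmp2, Rhox10 and Pyy, and among the latter Ifna4, Ifna2, Upk3b and Pax2. The median moved to -0.19 when the nuclear protein-coding total was set equal in every library, which gave 1983 higher and 5233 lower, and to -0.024 with quantile normalization, which gave 2710 and 3217. The share of higher genes among the calls was thus 37.3% on TPM as deposited, 27.5% with protein-coding scaling and 45.7% with quantile normalization. Of the 6802 calls, 3578 held in every fit that left out 1 of the 4 libraries, and of the 1818 at 2-fold or more 1238 did. A fit of the 4 libraries alone called 4385 genes. RT libraries correlated with each other at 0.977 across genes, ST libraries at 0.969.

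**Figure D1:**
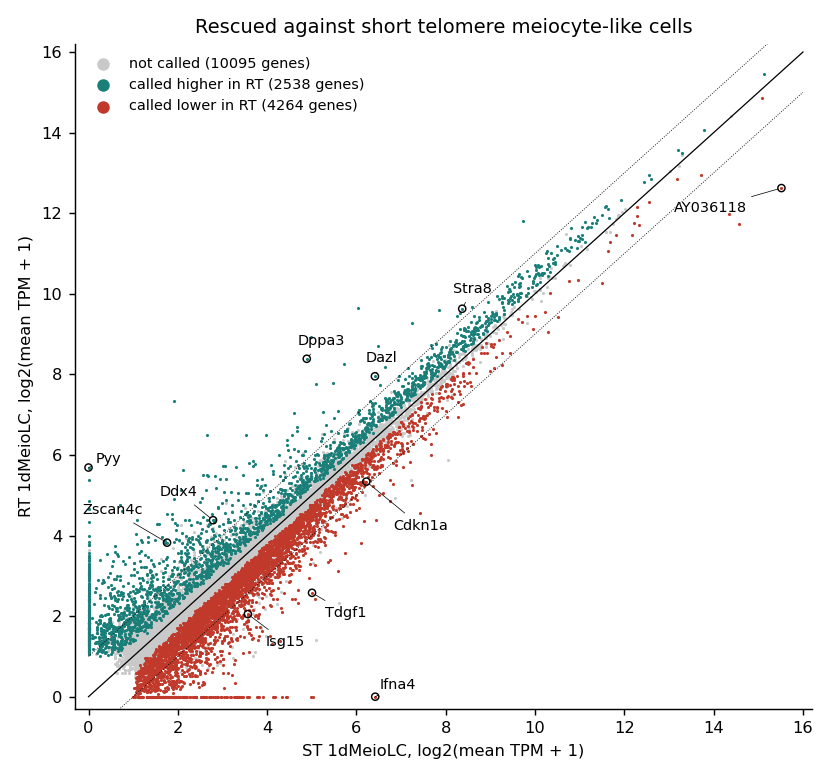
Mean TPM of each of the 16897 measured genes in ST (horizontal axis) and RT (vertical axis) 1dMeioLC, both as log2(mean TPM + 1), with genes coloured by their limma call. The solid line marks equal values and the dotted lines a 2-fold difference. Dppa3, Dazl and Stra8 lie above the lines, and Tdgf1, Isg15 and AY036118 lie below them.

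Most late germ cell genes rose in RT. Of 17 measured genes of that list (out of 19), 13 rose, 0 fell and 4 were not called, with a median log2 fold change of 0.91. Beside this and every later list count of RT minus ST stand 15% higher and 25.2% lower over all measured genes. Dazl, an RNA-binding protein that licenses germ cells for sexual development, stood at 252 and 241 TPM in RT and 80.6 and 88 TPM in ST, which differ by 1.54 (SE 0.088, adjusted p = 3.1e-06) on the log2 scale. LT held it at 349.6 and 339 TPM, so both RT libraries lay between the other groups and none overlapped. Ddx4, the germ cell RNA helicase also called Vasa, stood at 17.9 and 21.8 TPM in RT and 5.98 and 5.84 TPM in ST, with 37.4 and 32.9 TPM in LT. Its log2 fold change was 1.59 (SE 0.19, adjusted p = 0.00019). Slc25a31, a mitochondrial ADP/ATP carrier of the germline, stood at 53.4 and 54.3 TPM in RT and 8.89 and 15.4 TPM in ST, with a log2 fold change of 2.10 (SE 0.22, adjusted p = 8.6e-05). The remaining calls included the transcription factor Sohlh2 (1.3), the bromodomain gene Brdt (1.12), Tex14 (0.92) and Tex11 (0.91). Dppa5a, abundant in pluripotent and germ cells, stood at 11540 and 10580 TPM in RT and 10160 and 9874 TPM in ST and was not called (adjusted p = 0.27).

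The piRNA pathway silences transposons in germ cells by means of PIWI proteins loaded with small RNAs. Of its 12 measured genes (out of 20, with Piwil1, Piwil4 and Tdrd1 among those under the rule), 9 rose, 0 fell and 3 were not called, and the median log2 fold change was 1.38. Gtsf1, a zinc-finger partner of PIWI proteins, stood at 92.4 and 85.8 TPM in RT and 19.9 and 24.9 TPM in ST (log2 fold change 1.95, SE 0.27, adjusted p = 0.00043). Mael, a factor of germ granules, stood at 28 and 28.8 TPM in RT and 7.36 and 7.45 TPM in ST. Mov10l1, the helicase that starts piRNA production, stood at 7.54 and 7.57 TPM in RT and 1.26 and 1.89 TPM in ST. Every RT library exceeded every ST library for these 3 genes, a pattern that 26.9% of all measured genes showed, while 41.9% showed the reverse and 68.8% showed either. Asz1 (1.55), Fkbp6 (1.54), Tdrd12 (1.21), Piwil2 (0.84) and Tdrkh (0.83) completed the list of calls together with Ddx4 (1.59). Tdrd7, Gpat2 and Pld6 were not called.

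The promoters of late germ cell and piRNA genes are shown because a sequence letter pattern was more common in them than in other promoters. RefSeq start sites on GRCm38.p6 were used, with 250 bases before the start, written 5′ to 3′ along the gene with matches of the E-box CACGTG and of TTCCCGC (an E2F-type motif) in capitals. The 3 promoters were chosen after values and motifs were seen.

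Ddx4, chr13:112652311-112652560, minus strand: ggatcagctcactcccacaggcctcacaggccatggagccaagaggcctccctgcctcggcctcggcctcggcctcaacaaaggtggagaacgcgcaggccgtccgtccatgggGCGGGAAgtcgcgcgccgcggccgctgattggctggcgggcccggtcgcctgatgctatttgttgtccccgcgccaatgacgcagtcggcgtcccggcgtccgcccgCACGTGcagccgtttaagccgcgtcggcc
Mael, chr1:166238745-166238994, minus strand: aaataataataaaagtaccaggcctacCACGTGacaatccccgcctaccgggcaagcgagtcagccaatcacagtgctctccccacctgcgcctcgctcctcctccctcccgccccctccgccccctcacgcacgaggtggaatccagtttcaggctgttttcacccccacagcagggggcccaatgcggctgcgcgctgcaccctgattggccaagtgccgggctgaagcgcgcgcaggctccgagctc
Slc25a31, chr3:40708621-40708870, plus strand: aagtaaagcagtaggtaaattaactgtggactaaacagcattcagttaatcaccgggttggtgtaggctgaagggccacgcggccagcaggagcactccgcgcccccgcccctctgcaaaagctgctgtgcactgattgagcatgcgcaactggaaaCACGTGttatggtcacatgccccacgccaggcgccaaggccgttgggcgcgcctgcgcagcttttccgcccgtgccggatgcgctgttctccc

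CACGTG, which reads the same on both strands, started 29 bases before the RefSeq start in Ddx4, 223 in Mael and 93 in Slc25a31, and Ddx4 also had GCGGGAA, the reverse complement of TTCCCGC. Windows 250 bases before to 50 after the start held CACGTG in 60% of 20 promoters of the called-higher genes of these 2 lists, in 42.5% of 40 promoters of all genes named in the lists, and in 9.65% of 13567 promoters of measured genes. Over all genes called higher the share was 10.1%, and over genes not called 9.82%. The lists were chosen for germline function and hold germline genes by design, promoters of 1 gene share sequence, and a match is a description of letters, not a binding site. No match of any of the 7 motifs searched was found in the Dazl window.

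**Figure D2:**
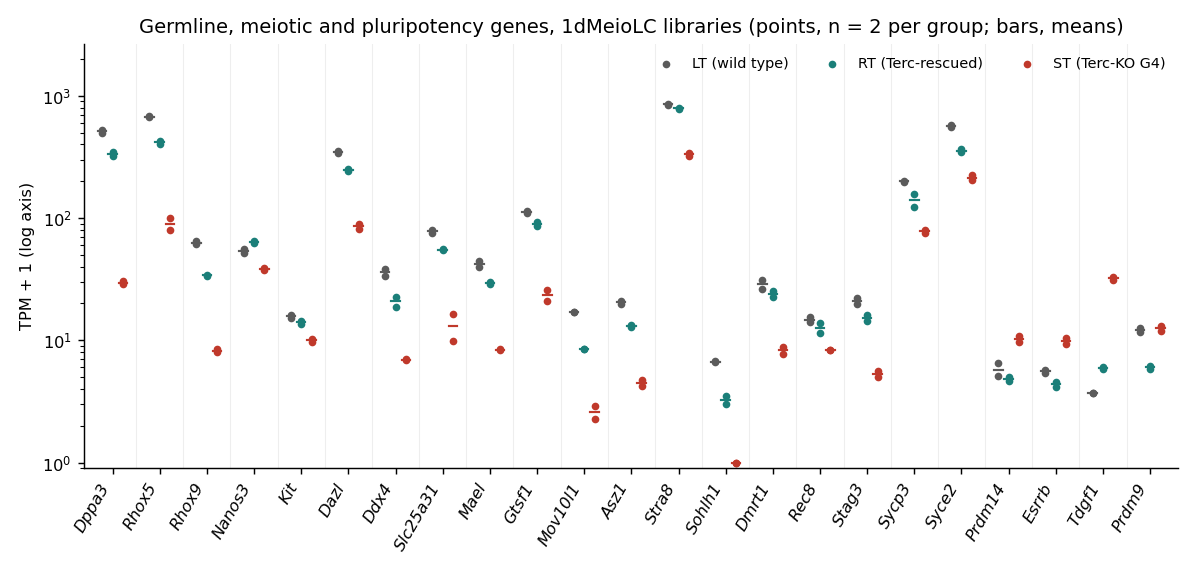
TPM + 1 (log axis) of germline, meiotic and pluripotency genes in each LT, RT and ST 1dMeioLC library. Points are libraries and bars group means. Dppa3, Dazl and Mael lie higher in RT than in ST and below LT, and Prdm14, Esrrb and Tdgf1 lie lower in RT than in ST.

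Most regulators of meiotic entry rose in RT. Of 19 measured genes, 12 rose, 2 fell and 5 were not called. Stra8, which retinoic acid induces at the start of meiosis, stood at 799.8 and 782 TPM in RT and 336 and 323 TPM in ST (log2 fold change 1.26, SE 0.17, adjusted p = 0.00043), and LT stood at 846 and 858 TPM. Sohlh1, a germ cell transcription factor, was listed at 0 in both ST libraries and stood at 2.02 and 2.52 TPM in RT and 5.6 and 5.81 TPM in LT. It met the rule through RT alone. Dmrt1, a sex determination factor also active in germ cells, stood at 24.1 and 21.4 TPM in RT and 6.78 and 7.81 TPM in ST, and Gata2 stood at 4.34 and 3.56 TPM in RT and 0.652 and 1.36 TPM in ST. Zglp1, a transcription factor of the oogenic program, stood at 16.1 and 10.9 TPM in RT and 6.87 and 3.51 TPM in ST (log2 fold change 1.26, SE 0.26, adjusted p = 0.0042). BMP targets Msx1 (1.10), Msx2 (0.53) and Id1 (0.47) rose, while the feedback gene Smad6 fell (-0.58). Cyp26b1, the retinoic acid degrading enzyme of gonadal somatic cells, stood at 19.5 and 19.3 TPM in RT and 39.6 and 35.8 TPM in ST (log2 fold change -0.92, SE 0.14, adjusted p = 0.00071).

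The synaptonemal complex and the chromosome axis hold paired chromosomes together in meiotic prophase. Of 22 measured genes, 12 rose, 0 fell and 10 were not called. Stag3, a meiotic cohesin subunit, stood at 15.1 and 13.3 TPM in RT and 4.6 and 4.04 TPM in ST (log2 fold change 1.51, SE 0.13, adjusted p = 2e-05). Syce2, a central element protein, stood at 366 and 343 TPM in RT and 202 and 222 TPM in ST, with 559 and 574 TPM in LT. Sycp3, the lateral element protein, stood at 155 and 123 TPM in RT and 73.8 and 79.4 TPM in ST (log2 fold change 0.84, SE 0.20, adjusted p = 0.0078), and lost its call without RT replicate 1 (adjusted p = 0.062). Rec8, the meiotic kleisin, stood at 10.4 and 12.9 TPM in RT and 7.34 and 7.4 TPM in ST (0.59, SE 0.12, adjusted p = 0.0039). Smc1b (0.83), Tex12 (0.85), Sycp1 (0.75), Hormad1 (0.61), Hormad2 (1.38) and Sun1 (0.53) were called higher as well. Meiob, an axis-list gene that acts in recombination, was called higher (adjusted p = 0.036) on ST libraries at 0.258 and 3.27 TPM, and lost the call without RT replicate 1 (0.12), RT replicate 2 (0.1) and ST replicate 1 (0.24), and with protein-coding scaling (0.063).

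Of 18 measured genes of meiotic recombination, 4 rose, 2 fell and 12 were not called, with a median of 0.082, where 40.3% of all measured genes were called. Rec114, which helps form meiotic DNA breaks, stood at 98.6 and 92.9 TPM in RT and 56.8 and 49.2 TPM in ST (log2 fold change 0.84, SE 0.11, adjusted p = 0.00025). Dmc1, a meiotic strand exchange protein, was not called at 11.4 and 10.2 TPM in RT and 10.1 and 9.52 TPM in ST. Prdm9, the methyltransferase that places recombination hotspots, fell, with 4.84 and 5.15 TPM in RT and 10.9 and 12.2 TPM in ST and a log2 fold change of -1.07 (SE 0.17, adjusted p = 0.001). LT held Prdm9 at 10.7 and 11.7 TPM, close to ST.

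Summed TPM of 12 germ cell markers, which include Dazl, Ddx4, Dppa3 and Kit from the lists above, was 778 and 746 in RT, 239.8 and 245 in ST, 1104 and 1058 in LT and 1149 and 1164 in PGC-1dMeioLC. Of these 12 markers, 7 rose, 3 fell (Prdm1 and Prdm14 among them) and 2 were not called. Over all measured genes 15% rose and 25.2% fell. Dppa3 and Dazl made up most of the RT sums and of their excess over ST. Beside these germ cell sums, 20 gonadal somatic markers summed to 323 and 324 TPM in RT and 545 and 525 TPM in ST. Their part in the germ cell and meiotic differences was not tested.

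Genes of PGC specification and early PGCs moved in both directions, with 10 of 25 higher and 7 lower. Over all measured genes 15% were higher and 25.2% lower. Dppa3, also called Stella, a maternal-effect factor that marks PGCs, had the highest log2 fold change of the list. It stood at 347 and 321 TPM in RT and 27.6 and 29.6 TPM in ST (log2 fold change 3.50, SE 0.07, adjusted p = 1.1e-09), and LT stood at 524 and 495 TPM. The reproductive homeobox genes of the X chromosome followed. Rhox5 stood at 424 and 404 TPM in RT and 99.2 and 79 TPM in ST, Rhox9 stood at 32.8 and 33.2 TPM in RT and 7.42 and 7.08 TPM in ST and Rhox6 stood at 81.8 and 81.1 TPM in RT and 24.4 and 16.9 TPM in ST. Of 42 Rhox symbols, 21 were measured, of which 20 rose and 1 was not called, with a median log2 fold change of 1.95. The count includes Rhox10 and any other symbol that met the rule through RT alone, whose direction the rule fixed. These symbols were counted after values were seen, and near-identical copies share reads. Nanos3, an RNA-binding protein needed for PGC survival, rose by 0.73 (SE 0.17, adjusted p = 0.0079), and Kit, the receptor for stem cell factor, by 0.49 (SE 0.096, adjusted p = 0.0032), both on the log2 scale. Dnd1 (0.99), Sall4 (0.34) and Ifitm1 (0.74) rose. Tfap2c, a PGC specification factor, was not called (6.16 and 5.87 TPM in RT and 6.81 and 4.63 TPM in ST, adjusted p = 0.72).

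The specification factors Prdm1 and Prdm14 fell. Prdm1, also called Blimp1, stood at 1.77 and 1.43 TPM in RT and 2.92 and 3.1 TPM in ST (log2 fold change -0.63, SE 0.11, adjusted p = 0.0021) and Prdm14 stood at 3.66 and 4.04 TPM in RT and 8.75 and 9.84 TPM in ST (log2 fold change -1.09, SE 0.13, adjusted p = 0.00017), with LT at 3.91 and 3.44 TPM and 5.48 and 4.07 TPM. Naive pluripotency genes moved in both directions, more of them down. Of 20 naive pluripotency genes, 5 rose, 10 fell and 5 were not called, and 3 rose without RT replicate 1 or without RT replicate 2. Esrrb, an orphan nuclear receptor of naive cells, stood at 3.58 and 3.13 TPM in RT and 9.38 and 8.4 TPM in ST (log2 fold change -1.18, SE 0.095, adjusted p = 1.6e-05). Nanog stood at 49.2 and 49.3 TPM in RT and 76.5 and 71.6 TPM in ST, with 29.6 and 26.3 TPM in LT. Tdgf1, the Nodal co-receptor Cripto, stood at 4.87 and 5.08 TPM in RT and 32 and 30.2 TPM in ST (log2 fold change -2.43, SE 0.093, adjusted p = 2e-07), with 2.72 and 2.73 TPM in LT. Fgf4 (-1.07), Tbx3 (-1.02) and Dppa2 (-0.80) fell, and Dppa4 (0.93) and Spp1 (0.78) rose. Of 15 formative and primed epiblast genes, 1 rose, 9 fell and 5 were not called. Dnmt3a stood at 8.08 and 8.46 TPM in RT and 14.5 and 16.3 TPM in ST (log2 fold change -0.82, SE 0.079, adjusted p = 5.1e-05), and the Nodal antagonist Lefty2 rose from 2.69 and 3.15 TPM in ST to 8.19 and 7.82 TPM in RT.

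**Figure D3:**
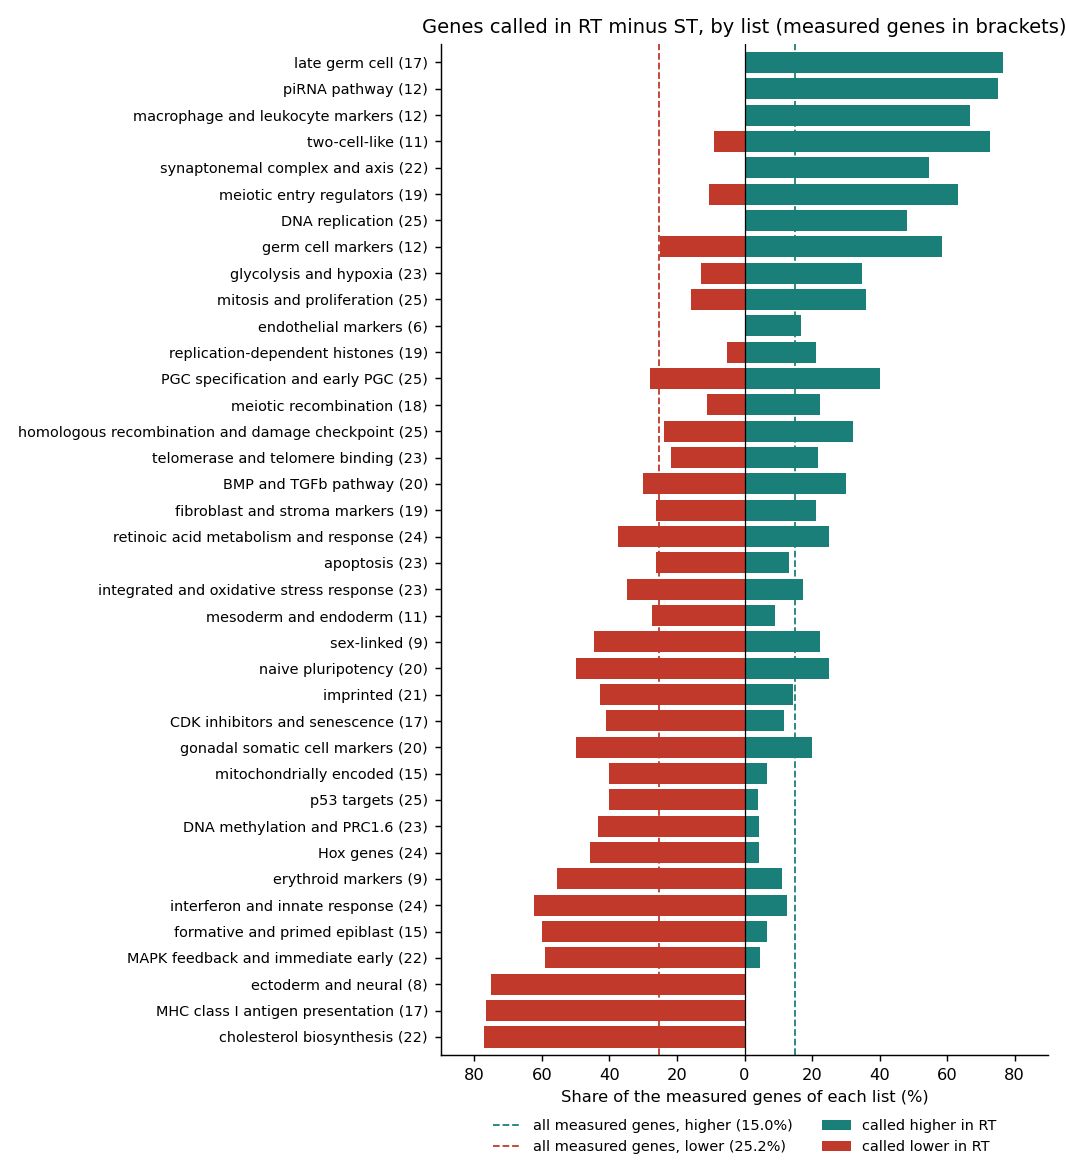
Share of each list's measured genes that was called higher (right) or lower (left) in RT minus ST, in percent. Dashed lines mark the shares over all 16897 measured genes, 15% higher and 25.2% lower, and list sizes stand in brackets. Late germ cell and piRNA genes lie far to the right, and cholesterol biosynthesis and MHC class I genes far to the left.

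Among targets of p53 more fell than rose in RT. Of 25 measured, 1 rose, 10 fell and 14 were not called, with a median of -0.36 against -0.11 over all measured genes. With protein-coding scaling 0 rose and 14 fell, where 11.7% of all measured genes rose and 31.0% fell. Cdkn1a, the CDK inhibitor p21, stood at 38.3 and 40.6 TPM in RT and 71.2 and 76 TPM in ST (log2 fold change -0.88, SE 0.063, adjusted p = 9.3e-06), and LT stood at 58.6 and 53.9 TPM. Sesn1, a stress-induced metabolic regulator, stood at 9.43 and 11.7 TPM in RT and 20.5 and 21.2 TPM in ST. Phlda3, an inhibitor of Akt signalling, stood at 15.6 and 9.3 TPM in RT and 30.8 and 34.6 TPM in ST (log2 fold change -1.37, SE 0.18, adjusted p = 0.00036). Btg2, an antiproliferative factor, stood at 17.4 and 17.4 TPM in RT and 29.2 and 34.6 TPM in ST. Trp53 itself fell (42.3 and 45.8 TPM in RT and 63.8 and 62.1 TPM in ST, log2 fold change -0.51, SE 0.07, adjusted p = 0.00047). Mdm2, the p53 ubiquitin ligase, was the gene of the list called higher (0.31), a call lost with protein-coding scaling (adjusted p = 0.069). Among 17 CDK inhibitor and senescence genes, 2 rose, 7 fell and 8 were not called. Cdkn2d rose from 15.9 and 15.5 TPM to 36.4 and 31 TPM and the chemokine Cxcl1 fell from 12.7 and 13.8 TPM to 2.92 and 1.74 TPM. Among 23 apoptosis genes, 3 rose, 6 fell and 14 were not called, and 3 fell without RT replicate 2. These apoptosis counts lie near the shares over all measured genes, 15% higher and 25.2% lower. Casp8, an initiator caspase, fell (-0.88).

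The DNA replication genes that were called rose, by small amounts. Of 25 measured, 12 rose, 0 fell and 13 were not called, with a median log2 fold change of 0.22, and 5 rose in the fit of the 4 libraries alone. Rfc4, a subunit of the clamp loader, stood at 212 and 208 TPM in RT and 123 and 136 TPM in ST (log2 fold change 0.70, SE 0.095, adjusted p = 0.00041). Pcna, the sliding clamp, stood at 181 and 178 TPM in RT and 122 and 126 TPM in ST (log2 fold change 0.53, SE 0.05, adjusted p = 4.2e-05). The helicase subunits Mcm2 to Mcm7 were not called, with log2 fold changes between -0.079 for Mcm3 and 0.09 for Mcm2. Of 25 mitosis and proliferation genes, 9 rose, 4 fell and 12 were not called, and without RT replicate 2 or ST replicate 2, 2 fell. Ccne1 rose (0.96), Ccnd1 fell (-0.81) and Mki67 was not called (15.8 and 12.3 TPM in RT and 14.3 and 14.1 TPM in ST). Of 25 genes of homologous recombination and the damage checkpoint, 8 rose, 6 fell and 11 were not called, with 3 lower without RT replicate 1 or ST replicate 2. The recombination and checkpoint counts stand beside 15% higher and 25.2% lower over all measured genes. Fancd2 (0.88), Bard1 (0.64) and Brca1 (0.39) rose, and Rad54l fell (-0.78).

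Telomerase and telomere-binding genes moved in both directions, with 5 of 23 higher and 5 lower, beside 15% higher and 25.2% lower over all measured genes. The lower count was 3 without RT replicate 1, 2 without RT replicate 2 and 3 without ST replicate 1. Tert, the catalytic subunit, stood at 1.18 and 0.826 TPM in RT and 2.3 and 2.25 TPM in ST (log2 fold change -0.72, SE 0.16, adjusted p = 0.0067), with 0.982 and 1.36 TPM in LT, and had an adjusted p of 0.053 without RT replicate 2. Nhp2, an RNA-binding protein of the telomerase complex, stood at 618 and 627 TPM in RT and 406 and 410.5 TPM in ST (log2 fold change 0.61, SE 0.037, adjusted p = 5e-06). Dkc1, which binds the same complex, fell (-0.28), as did the shelterin protein Terf1 (-0.38), while the shelterin proteins Pot1a (0.58) and Tinf2 (0.41) rose.

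Most genes of the two-cell-like state, which marks the mouse embryo at genome activation, rose in RT. Of 11 measured, 8 rose, 1 fell and 2 were not called. Zscan4c, a member of a gene cluster tied to telomere recombination, stood at 12 and 14.3 TPM in RT, 1.93 and 2.84 TPM in ST and 2.17 and 1.15 TPM in LT, with log2 fold changes of 2.07 (SE 0.21, adjusted p = 6.7e-05) against ST and 2.44 (SE 0.21, adjusted p = 6.9e-05) against LT. Zscan4d rose as well (log2 fold change 1.23, SE 0.26, adjusted p = 0.0044), from 5.23 and 5.42 TPM in ST. Of 8 measured Zscan4 symbols, 7 were called higher than ST and 1 was not called, a count made after values were seen. The copies are near-identical, so how reads were split among them is uncertain. Usp17la was listed at 0 in both ST libraries and stood at 1.57 and 1.67 TPM in RT, so it met the rule through RT alone. Obox6 stood at 11.8 and 11 TPM in RT, 17.7 and 13.8 TPM in ST and 0.334 and 0.485 TPM in LT, and its fall from ST was lost without RT replicate 1 (adjusted p = 0.087), RT replicate 2 (0.17) and ST replicate 1 (0.28), and with quantile normalization (0.21).

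Most interferon and innate response genes were lower in RT. Of 24 measured, 3 rose, 15 fell and 6 were not called. The list median was -0.49 in RT minus LT and -0.077 in ST minus LT, against -0.074 and 0.028 over all measured genes. RT thus lay below wild type on this list, while ST lay near it. These comparisons share libraries, so the values are given side by side only. Ifit1, which binds foreign RNA, stood at 24.9 and 22.7 TPM in RT and 63.1 and 62.1 TPM in ST (log2 fold change -1.36, SE 0.098, adjusted p = 9.4e-06), with 52.5 and 51.5 TPM in LT. Isg15, a ubiquitin-like protein, stood at 2.76 and 3.52 TPM in RT and 12.8 and 8.93 TPM in ST (log2 fold change -1.51, SE 0.17, adjusted p = 0.00012). The sensor Ddx58 (RIG-I) stood at 5.06 and 5.5 TPM in RT and 10.2 and 11.2 TPM in ST and the regulator Irf7 stood at 13.7 and 13.2 TPM in RT and 32.1 and 23.5 TPM in ST. The interferon genes Ifna4 and Ifna2 were listed at 0 in both RT libraries and stood at 86.2 and 83.2 TPM and 31.1 and 32.4 TPM in ST, with Ifna4 at 1.33 and 2.32 TPM in LT and Ifna2 listed at 0 there. Dhx58, a regulator of RIG-I, rose from 0.134 and 0.269 TPM to 2.63 and 2.44 TPM, as did Bst2 (0.63) and Ifi27 (0.71). Of 17 genes of MHC class I antigen presentation, 0 rose, 13 fell and 4 were not called, with a median of -0.91. Psmb8, an immunoproteasome subunit, stood at 13.2 and 18.5 TPM in RT and 49 and 40.5 TPM in ST (log2 fold change -1.45, SE 0.13, adjusted p = 3.3e-05). H2-D1 stood at 273 and 265 TPM in RT and 514 and 509.5 TPM in ST, and H2-K1 stood at 211 and 207 TPM in RT and 378 and 380.5 TPM in ST, with every RT library below every ST library. B2m, the light chain, fell as well (-0.40).

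The promoters of Isg15 and Ifit1 are shown with matches of the interferon-stimulated response element in capitals. It was searched on both strands as GAAA, any 2 bases and GAAA again.

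Isg15, chr4:156200819-156201068, minus strand: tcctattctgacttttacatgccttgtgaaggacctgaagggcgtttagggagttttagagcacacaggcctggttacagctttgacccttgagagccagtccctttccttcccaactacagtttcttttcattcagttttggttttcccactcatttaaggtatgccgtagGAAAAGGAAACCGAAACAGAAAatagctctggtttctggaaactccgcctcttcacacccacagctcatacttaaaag
Ifit1, chr19:34640639-34640888, plus strand: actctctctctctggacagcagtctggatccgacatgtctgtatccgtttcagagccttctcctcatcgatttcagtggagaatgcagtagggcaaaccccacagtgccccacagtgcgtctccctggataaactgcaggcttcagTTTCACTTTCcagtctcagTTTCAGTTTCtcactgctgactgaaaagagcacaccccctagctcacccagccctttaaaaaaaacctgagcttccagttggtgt

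Matches overlap in Isg15, and those in Ifit1 lie on the opposite strand of the gene. The element stood in 32.1% of 28 windows of called-lower genes of the interferon and MHC lists, in 38.9% of 36 windows of all genes of the lists, and in 3.05% of measured promoters. Among all genes called lower it stood in 3.22%. Psmb8 and Irf7 had no match.

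Most cholesterol biosynthesis genes were lower in RT, with 17 of 22 lower, none higher and 5 not called, and a median of -0.59. Srebf2, a transcription factor that controls the pathway, stood at 7.65 and 10.1 TPM in RT and 18.6 and 18 TPM in ST. Sc5d, which makes a late sterol intermediate, stood at 23.6 and 22.7 TPM in RT and 42 and 40.3 TPM in ST (log2 fold change -0.80, SE 0.10, adjusted p = 0.00028). Immediate early and MAPK feedback genes fell too, 13 of 22, or 7 without RT replicate 1 and 8 without ST replicate 1. Egr1 stood at 34.8 and 29.9 TPM in RT and 55.9 and 52.2 TPM in ST (log2 fold change -0.73, SE 0.14, adjusted p = 0.0035), Ier2 stood at 49.3 and 54.2 TPM in RT and 91.3 and 83.1 TPM in ST, and Fosb fell (-1.13), while Nr4a1 rose (0.68). Hox genes fell in 11 of 24 cases, and in 7 without ST replicate 1. Hoxd9 stood at 5.73 and 4.01 TPM in RT and 16.7 and 14.6 TPM in ST and Hoxc6 stood at 0.866 and 2.58 TPM in RT and 8.4 and 5.97 TPM in ST.

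Of 24 genes of retinoic acid metabolism and response, 6 rose, 9 fell and 9 were not called. The list counts of this paragraph stand beside 15% higher and 25.2% lower over all measured genes, or 11.7% and 31.0% with protein-coding scaling. Dhrs3, which turns retinal back into retinol, stood at 124 and 119 TPM in RT and 310.5 and 303 TPM in ST (log2 fold change -1.33, SE 0.16, adjusted p = 0.0002), and the synthesis enzyme Aldh1a2 stood at 13.1 and 12.54 TPM in RT and 25.6 and 24.4 TPM in ST. Cyp26a1, a degrading enzyme, stood at 158 and 166 TPM in RT and 76.9 and 78.6 TPM in ST (log2 fold change 1.05, SE 0.23, adjusted p = 0.006), and the binding protein Crabp1 stood at 32.8 and 32.1 TPM in RT and 11.5 and 6.95 TPM in ST. Of 20 BMP and TGFb genes, 6 rose, 6 fell and 8 were not called. The ligand Bmp2 stood at 3.23 and 3.16 TPM in RT and 0.742 and 0.743 TPM in ST and Bmp4 stood at 2.67 and 1.84 TPM in RT and 5.87 and 6 TPM in ST, while Tgfb2 fell (-1.33). Of 23 glycolysis and hypoxia genes, 8 rose, 3 fell and 12 were not called (5 fell with protein-coding scaling). Bnip3 stood at 148 and 126 TPM in RT and 61.5 and 69.2 TPM in ST and Ldha stood at 268 and 248 TPM in RT and 196 and 208 TPM in ST. Of 23 genes of DNA methylation and the PRC1.6 repressor, 1 rose, 10 fell and 12 were not called, and 4 fell in the fit of the 4 libraries alone. Tet2, a demethylation enzyme, stood at 4.83 and 5.58 TPM in RT and 11.4 and 10.3 TPM in ST (log2 fold change -0.93, SE 0.12, adjusted p = 0.00024), and Max (-0.28) and Mga (-0.30) of PRC1.6 fell.

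Of 21 measured imprinted genes, 3 rose, 9 fell and 9 were not called, and 1 rose with protein-coding scaling or without RT replicate 1 or ST replicate 1. Igf2r stood at 25.9 and 26.4 TPM in RT and 51.2 and 49.9 TPM in ST (log2 fold change -0.92, SE 0.075, adjusted p = 1.7e-05) and Phlda2 stood at 213 and 209 TPM in RT and 90.2 and 91.9 TPM in ST (log2 fold change 1.21, SE 0.076, adjusted p = 5.8e-06). Of 23 genes of the integrated and oxidative stress response, 4 rose, 8 fell and 11 were not called. The higher count was 2 with protein-coding scaling, 1 without RT replicate 1 and 2 without ST replicate 1, and the lower count 5 without RT replicate 1 and 4 without ST replicate 2. All list counts here, the mesoderm and endoderm ones included, stand beside 15% higher and 25.2% lower over all measured genes. With protein-coding scaling these shares were 11.7% and 31.0%. Asns rose (0.68) and Hspa5, a chaperone of the endoplasmic reticulum, fell (-0.61). Of 15 mitochondrially encoded genes, 1 rose, 6 fell and 8 were not called, with mt-Cytb at 30280 and 28810 TPM in RT and 34060 and 34880 TPM in ST. Of 19 replication-dependent histone genes, 4 rose, 1 fell and 14 were not called, or 2 higher without ST replicate 1, with Hist1h3c at 13.7 and 19.7 TPM in RT and 2.09 and 3.73 TPM in ST. Of 8 ectoderm and neural genes 6 fell, among them the simple-epithelium keratins Krt8 (25.2 and 23.9 TPM in RT and 66.5 and 65.5 TPM in ST) and Krt18, and Pax2 (0.53 and 0.328 TPM in RT and 3.17 and 3.96 TPM in ST). Of 11 mesoderm and endoderm genes, 1 rose, 3 fell and 7 were not called. Gata6 fell (-0.75) and Foxa1 rose (1.27).

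Markers of cell types that the gonadal co-culture could leave among the GFP-negative cells differed as well. Macrophage and leukocyte markers summed to 352 and 352 TPM in RT, 110.2 and 108 TPM in ST and 341 and 334 TPM in LT, and 8 of 12 measured (18 listed) rose. The complement genes C1qb (45 and 44 TPM in RT and 4.85 and 5.67 TPM in ST), C1qc and C1qa rose, and the adaptor Tyrobp stood at 51.2 and 59 TPM in RT and 11.2 and 11 TPM in ST (log2 fold change 2.21, SE 0.16, adjusted p = 1e-05). Ptprc and Itgam, surface markers of leukocytes, did not reach the rule, and S100a8 and S100a9 were listed at 0 in all 4 libraries. Of 20 gonadal somatic markers, 4 rose, 10 fell and 6 were not called. Wt1 stood at 32.3 and 30.5 TPM in RT and 64.7 and 60.9 TPM in ST (log2 fold change -0.98, SE 0.085, adjusted p = 2.6e-05), Wnt4 stood at 36 and 37 TPM in RT and 73.4 and 69.4 TPM in ST and Upk3b, a mesothelial gene, stood at 0.443 and 0.587 TPM in RT and 7.35 and 6.9 TPM in ST. Fst (0.88) and Rspo1 (0.85) of the same list rose. Of 9 erythroid markers, 1 rose, 5 fell and 3 were not called, or 3 lower without RT replicate 1 or ST replicate 2, and the list summed to 1262 and 1256 TPM in RT and 2533 and 2544 TPM in ST. Hba-a1 stood at 685 and 696 TPM in RT and 1465 and 1468 TPM in ST (log2 fold change -1.09, SE 0.18, adjusted p = 0.0013). Of 19 stroma markers, 4 rose, 5 fell and 10 were not called (10 fell with protein-coding scaling). The unscaled stroma counts lie near the shares over all measured genes, 15% higher and 25.2% lower. With protein-coding scaling 31.0% of all measured genes fell. Dcn stood at 45.4 and 44.2 TPM in RT and 15.4 and 17.9 TPM in ST, and Col1a1 fell (-0.62). Of 6 endothelial markers Plvap was called higher, a call lost without RT replicate 1 (adjusted p = 0.18), without ST replicate 2 (0.22), with quantile normalization (0.050) and with protein-coding scaling (0.052). Under the last, Eng was called lower (0.028) and no other marker of the list was. The part of these marker differences in the gene lists above was not tested.

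**Figure D4:**
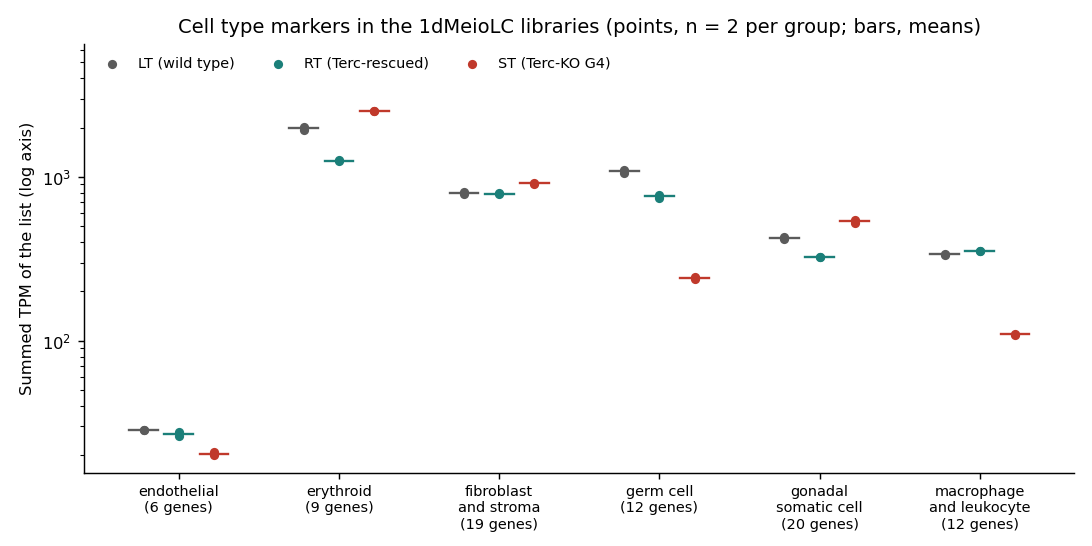
Summed TPM (log axis) of 6 lists of cell type markers in each LT, RT and ST 1dMeioLC library, with the number of measured genes in brackets. Points are libraries and bars group means. Germ cell and macrophage sums are higher in RT than in ST, and gonadal somatic and erythroid sums are lower.

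Of 9 sex-linked genes, 2 rose, 4 fell and 3 were not called, or 2 lower without RT replicate 2 or ST replicate 1. These counts stand beside 15% higher and 25.2% lower over all measured genes. Eif2s3y, a Y-linked gene, stood at 16.8 and 15.6 TPM in RT and 5.28 and 5.15 TPM in ST (log2 fold change 1.47, SE 0.13, adjusted p = 2.8e-05), and Xist, transcribed from the inactive X chromosome, stood at 3.58 and 3.81 TPM in RT and 8.39 and 8.86 TPM in ST (log2 fold change -1.04, SE 0.094, adjusted p = 3.6e-05), with LT at 15.8 and 16 TPM and 4.2 and 3.8 TPM. Ddx3y, also Y-linked, rose by 0.51 and lost the call in the limma fit of the 4 libraries alone (adjusted p = 0.075). No other gene of the list was called higher. The somatic cells of the co-culture were female. Beside these values stand the gonadal somatic sums above, and their part in the sex-linked differences was not tested.

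The largest called changes at 10 TPM or more mixed protein-coding genes with very short RNA genes. Among the 12 highest and 12 lowest, 14 were miRNA or snoRNA genes of 58 to 129 bases, for which TPM divides by a very short length. Dppa3, Rhox10, Pf4, Grifin, Hist1h2an and Pyy were the protein-coding genes among the highest. Pyy, a gut peptide hormone, was listed at 0 in both ST libraries and stood at 46.3 and 54.8 TPM in RT. Pf4, a platelet chemokine, stood at 86.8 and 91.5 TPM in RT and 6.1 and 4.48 TPM in ST (log2 fold change 3.85, SE 0.12, adjusted p = 5.2e-08). Rhox10 stood at 26.6 and 20.5 TPM in RT and 0.576 and 0.769 TPM in ST (log2 fold change 3.87, SE 0.18, adjusted p = 8.4e-07), and Hist1h2an stood at 399.9 and 579.5 TPM in RT and 39.2 and 22.4 TPM in ST. Ifna4, Ifna2, mt-Nd4l and the non-coding RNA AY036118 were among the lowest. AY036118, on chromosome 17, 39847113 to 39848035 (mm10), stood at 6004 and 6618 TPM in RT and 47130 and 46730 TPM in ST (log2 fold change -2.90, SE 0.058, adjusted p = 1.1e-09), and it lies in the chromosome 17 locus whose share is given above. Mir147 stood at 201 and 119.8 TPM in RT and 5.57 and 0 TPM in ST (log2 fold change 5.93, SE 0.72, adjusted p = 0.0002).

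RT was also set against LT to show where the rescued line still differed from wild type. Of the 16897 genes, 3640 (21.5%) were called, 1302 (7.71%) higher and 2338 (13.8%) lower, and this count fell to 2246 or 1972 when RT replicate 1 or 2 was left out, and to 1995 or 1529 when LT replicate 1 or 2 was. RT minus ST and RT minus LT share the RT libraries, so their values are given side by side only. RT minus LT gave 2 higher and 7 lower of 17 late germ cell genes, 0 higher and 7 lower of 12 piRNA genes and 10 higher and 0 lower of 11 two-cell-like genes. It also gave 2 higher and 14 lower of 24 interferon and innate response genes, and 0 higher and 5 lower of 17 MHC class I genes. Dazl was lower in RT than in LT (-0.48, SE 0.088, adjusted p = 0.005), as was Dppa3 (-0.61, SE 0.07, adjusted p = 0.00041). Stra8 was not called (846 and 858 TPM in LT, adjusted p = 0.75), nor were Gtsf1 (adjusted p = 0.46) and Slc25a31 (adjusted p = 0.15). Ddx4 was lower (-0.80, SE 0.19, adjusted p = 0.017), a call lost without RT replicate 1 (adjusted p = 0.098) and without either LT replicate (0.096 and 0.057), and with quantile normalization (0.058). Cdkn1a was lower than LT (-0.50, SE 0.063, adjusted p = 0.00067), and Nanog was higher (0.80, SE 0.097, adjusted p = 0.00053). Obox6 was among the 4 highest (3.14, SE 0.14, adjusted p = 2.1e-06), next to the short RNA genes Mir6935, Mir101a and Mir1896. Hbb-bh0 and Fbxl18 were among the 4 lowest with Mir503 and Snord83b. In a limma fit of the 1dMeioLC libraries alone, calls were lost by Mir6935 (adjusted p = 0.059), Mir101a (0.072), Mir503 (0.054) and Hbb-bh0 (0.074). Mir101a moved from 3.25 to 1.68 without LT replicate 2, and Hbb-bh0 from -3.20 to -1.96 without RT replicate 1.

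The RT minus ST difference at 1dMeioLC was set against the same difference at 1dEB. This difference between stages was tested with protein-coding scaling, because genes of the chromosome 17 locus took 41.0% and 38.3% of TPM in RT 1dEB and 23.9% and 24.7% in ST 1dEB. It was called for 6648 of 16897 genes (39.3%), 2374 (14%) higher and 4274 (25.3%) lower at 1dMeioLC than at 1dEB, and for 8063 genes on TPM as deposited. Dppa3 had RT minus ST of 3.39 at 1dMeioLC and 0.64 at 1dEB (difference 2.75, SE 0.093, adjusted p = 5.9e-08), on 19.97 and 22 TPM in RT 1dEB and 20.4 and 21.2 TPM in ST 1dEB. Dazl differed by 0.89 (SE 0.15, adjusted p = 0.0012) and Ddx4 by 1.16 (SE 0.29, adjusted p = 0.011) in the same sense. Tert (-1.40, SE 0.22, adjusted p = 0.00077) and Tfap2c (-1.27, SE 0.19, adjusted p = 0.00065) were lower at 1dMeioLC. Pyy stood at 0.15 and 0 TPM in RT 1dEB and 5.89 and 7.01 TPM in ST 1dEB, against 46.3 and 54.8 TPM and 0 in RT and ST 1dMeioLC. Stra8, Sycp3, Nanos3, Kit, Prdm1 and Cdkn1a were not called for a stage difference. Without ST 1dEB replicate 1, Stra8 (-0.91, adjusted p = 0.0024) and Sycp3 (-0.52, adjusted p = 0.039) were called lower, and Stra8 was also called with quantile normalization (-0.65, adjusted p = 0.045). On TPM as deposited Nanos3 (0.66) and Cdkn1a (0.69) were called and Prdm14, Rec8 and Mki67 were not.

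**Figure D5:**
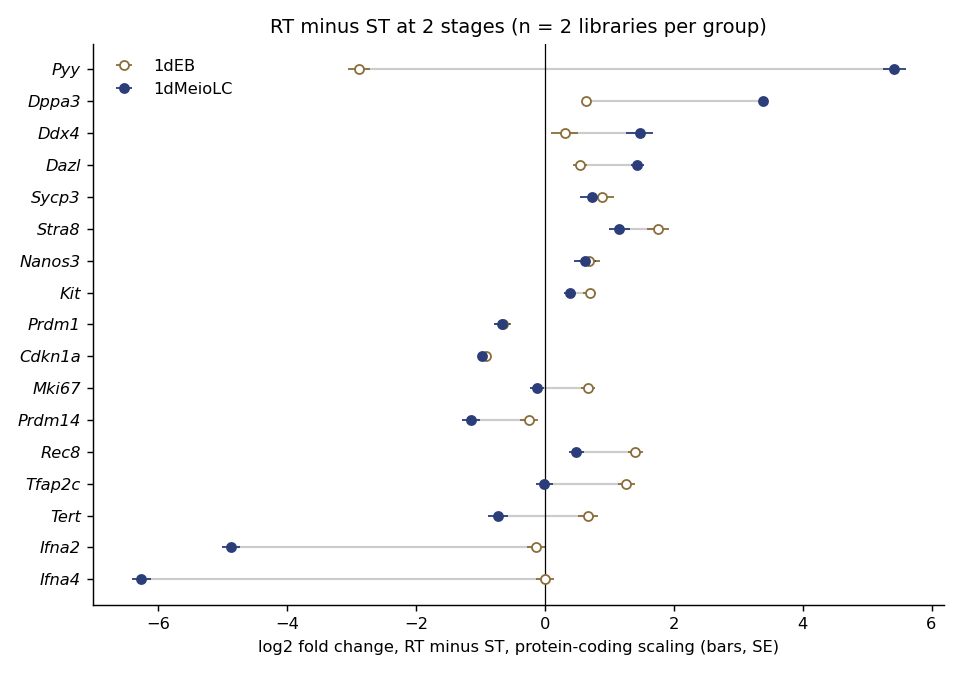
Log2 fold change of RT minus ST at 1dEB (open points) and 1dMeioLC (filled points) with protein-coding scaling, for anchor genes and for Pyy, Ifna2 and Ifna4. Bars are standard errors. The points of Dppa3, Ddx4 and Dazl lie further right at 1dMeioLC, and those of Tert, Rec8 and Tfap2c further left.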

How the data were processed

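RNA was sequenced from stages of a mouse stem cell differentiation that ends in meiocyte-like cells. The authors deposited 1 table of TPM per gene symbol. Per the submitters' processing notes, HISAT2, Bowtie2, RSEM, R 3.4.2, DESeq2 and the mm10 build were used, in an order not given in the sources used here. Columns were matched to samples by name. 16 columns match 1 sample each, and 12 columns, whose names occur in pairs, were not used.

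log2(TPM + 1) was fitted in limma 3.58.1 (R 4.3.3) with 1 mean per group over the 16 libraries of 8 groups, no replicate block and an intensity trend. Moderated 2-sided tests were adjusted by Benjamini-Hochberg over 21935 genes with at least 1 TPM in 2 or more of these libraries. A gene was called at an adjusted p under 0.05. The 2-fold threshold is 1 on the log2 scale. Calls were counted among the 16897 genes that define the comparison. For the comparison of stages, the nuclear protein-coding total was first set equal in every library. The fit was tested on simulated data. Depth is unknown and does not enter the precision stated. That precision rests on a spread pooled over the 16 libraries of 8 groups, with 2 libraries per group.

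The comparison, the gene lists and the rule for named genes were chosen with earlier results of these data known. The rule named 16 anchors, up to 4 called genes per list with the largest change, and the 12 highest and 12 lowest called genes at 10 TPM or more without overlap, and 4 and 4 for RT minus LT and for stages. Other genes and the counts by symbol family were named after their values were seen. Of 38 lists, 4 names found no symbol. Positions are those of GENCODE M21 (mm10), and promoters those of RefSeq (GRCm38.p6). Alternatives were other pseudocounts, filters, scalings and sets of libraries, and leaving out each library. Same-numbered libraries of RT and ST deviated with a correlation of -0.034 across genes, so no shift shared by replicate number was seen. This cannot tell whether same-numbered libraries were prepared together. Figures were drawn with matplotlib 3.10.9. Some items are not reported here.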

Additional observations from a re-analysis of the deposited data

Results flagged for a closer look

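The RT minus ST difference was tested against the same difference at 1dEB, with protein-coding scaling, and 6648 genes differed between the stages in the limma test. A positive value means that RT minus ST was higher at 1dMeioLC. Among the anchors, Dppa3 (2.75), Ddx4 (1.16) and Dazl (0.89) were higher at 1dMeioLC, and Tert (-1.40), Tfap2c (-1.27), Rec8 (-0.92), Prdm14 (-0.90) and Mki67 (-0.79) were lower. On TPM as deposited Dppa3 was 3.49, Ddx4 1.79, Dazl 1.5, Tert -0.86 and Tfap2c -0.55, all still called, and the differences of Prdm14 (-0.41, adjusted p = 0.093), Rec8 (-0.21, adjusted p = 0.35) and Mki67 (-0.090, adjusted p = 0.69) were not called. The 4 highest stage differences were those of Pyy (8.31), Mir125b-1 (5.74), Mir147 (5.45) and Scarna9 (5.44). The 4 lowest were those of Ifna4 (-6.26), Mir7036b (-5.11), Ifna2 (-4.74) and Mir6357 (-4.66). Mir7036b lost its call with a replicate block (adjusted p = 0.058) and when 1 library was left out (adjusted p from 0.069 to 0.11), except without RT 1dEB replicate 2 (0.016). Each of these 8 highest and lowest genes is listed at 0 in at least 1 RT or ST library, so their fitted folds depend on the pseudocount of 1.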

How the results depend on the processing

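The 6802 calls of RT minus ST became 4385 (2548 lower) in a fit of the 4 RT and ST libraries alone and 4952 to 5312 when 1 library was left out. The 2-fold count of 1818 became 465 (259 higher, 206 lower) with a pseudocount of 5, 808 (353 and 455) with a filter of 5 TPM and 954 (458 and 496) among nuclear protein-coding genes, where fewer genes are counted, and 1586 to 1733 when 1 library was left out. RT minus LT called 1529 to 2246 genes when 1 library was left out (602 to 836 higher and 927 to 1466 lower), and 1411 lower with quantile normalization. No shift shared by replicate number was seen between RT and ST. With the number as a replicate block RT minus ST gave 6552 calls. The stage difference gave between 4583 (filter of 5 TPM) and 8063 calls (TPM as deposited). Of 168 named genes called in RT minus ST, 134 kept the call in every alternative. Among the named genes, 26 values changed sign, all of genes not called in the reported fit. In RT minus ST, Tfap2c was -0.0060 with protein-coding scaling and from -0.16 (without ST replicate 2) to 0.32 without 1 library, and Mki67 was 0.0995 with quantile normalization and from -0.19 to 0.15 (without RT replicate 2). In RT minus LT, Tert ranged from -0.25 to 0.012 without 1 library, positive without RT replicate 2 or LT replicate 2 (0.010). For the stage difference, a pseudocount of 5 gave Prdm1 0.022, Stra8 0.069, Sycp3 0.084 and Cdkn1a 0.012. Quantile normalization gave Prdm1 0.27, Kit 0.046 and Cdkn1a 0.20. TPM as deposited gave Prdm1 0.36, Kit 0.30, Stra8 0.12, Sycp3 0.56, Nanos3 0.66 (adjusted p = 0.047) and Cdkn1a 0.69 (adjusted p = 0.00016), of which the last 2 were then called. Leaving out 1 library gave Prdm1 -0.17 to 0.15, with positive values of 0.078 (without RT replicate 2), 0.022 (without ST replicate 2), 0.15 (without RT 1dEB replicate 1) and 0.0079 (without ST 1dEB replicate 1). It gave Stra8 -0.91 (called, without ST 1dEB replicate 1) to -0.28, Sycp3 -0.52 (called, without ST 1dEB replicate 1) to 0.24, positive without RT replicate 2 (0.027) and ST 1dEB replicate 2, and Nanos3 -0.25 to 0.12, positive without ST 1dEB replicate 1. The cause of these shifts was not tested. The protein-coding count and the fits without a 1dEB library were added after the data were seen.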
